A study of Mus musculus with 8 samples.

Results

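The Schlafen genes are a family of mouse genes named after the German word for sleep. Their members were chosen by symbol, as the rows of the deposited table that carry Slfn1, Slfn2, Slfn3, Slfn4, Slfn8, Slfn9 or Slfn10-ps. By this choice all 7 are among the 1329 genes of the table, so their presence there is not a result. The other 3 listed family genes, Slfn5, Slfn14 and Slfnl1, were not analysed here, so the changes described cover these 7 members and not the whole family. All mice were Fbn1 mgR/mgR, a genotype that lowers the matrix protein fibrillin-1 and models Marfan syndrome, and poly-A RNA of their ascending aorta was sequenced. In the DT-061 group (4 libraries), mice received DT-061, a small molecule that activates protein phosphatase 2A, by mouth at 5 mg/kg, 2 times daily over 4 weeks that began at 5 weeks of age. In the vehicle group (4 libraries), mice received the N,N-dimethylacetamide and Kolliphor HS-15 solution alone on the same schedule. The comparison asks which transcripts of the diseased aorta differ when this phosphatase is activated. No label states that each library came from a separate mouse, so the p-values measure the spread between these libraries, which may in part be technical.

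Schlafen proteins are known chiefly from lymphocytes and myeloid cells, where several of them hold back proliferation or protein synthesis, and some members of the family bind or cut transfer RNA. Mouse Schlafen genes are commonly sorted by protein size into short (Slfn1, Slfn2), intermediate (Slfn3, Slfn4) and long forms (Slfn8, Slfn9), of which the long ones add a helicase-like region. Several of them are induced by interferon in mouse immune cells. Slfn10-ps is a pseudogene of the long group.

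The genes lie together on chromosome 11. In GENCODE M21 on GRCm38, the same build as the mm10 of the submitters' notes, Slfn9 (82978390 to 82991830), Slfn8 (83002158 to 83020810) and Slfn10-ps (83028130 to 83040042) are on the minus strand. Slfn2 (83065112 to 83070678), Slfn1 (83116849 to 83122670), Slfn4 (83175186 to 83190216) and Slfn3 (83191330 to 83215154) are on the plus strand. The longest coding sequences are 1014 bases for Slfn1, 1137 for Slfn2, 1923 for Slfn3, 1809 for Slfn4 and 2733 for both Slfn8 and Slfn9. Slfn8 and Slfn9 are the closest pair, with 92.7% identical columns in a global alignment of these sequences. Slfn3 and Slfn4 follow with 85.3%, and Slfn1 and Slfn2 with 63.1%. Exons of no other gene overlap those of the members in this annotation.

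Promoter sequences of the members are shown as a description, and a link between them and the expression changes was not tested. RefSeq windows on GRCm38.p6, running from 250 bases before to 50 after a gene's start, were found for 6 of the 7 members, all but Slfn10-ps. The words searched were chosen after these sequences were seen, so a match in the members is not a test. In the plus-strand genes, the longest word shared by the 250 upstream bases of Slfn1, Slfn2, Slfn3 and Slfn4 was ACTTCCTGG, marked in capitals in the following stretches of 100 bases, each given 5′ to 3′ on the gene's own strand.
Slfn1 (chr11:83116696-83116795, plus strand): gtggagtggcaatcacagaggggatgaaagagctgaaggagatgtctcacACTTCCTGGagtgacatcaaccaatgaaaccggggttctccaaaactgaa
Slfn2 (chr11:83065007-83065106, plus strand): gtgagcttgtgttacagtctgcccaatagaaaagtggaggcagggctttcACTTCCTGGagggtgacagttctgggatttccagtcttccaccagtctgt
Slfn4 (chr11:83175063-83175162, plus strand): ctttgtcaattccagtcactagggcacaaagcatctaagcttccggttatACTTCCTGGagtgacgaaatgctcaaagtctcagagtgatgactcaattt
Slfn3 (chr11:83191230-83191329, plus strand): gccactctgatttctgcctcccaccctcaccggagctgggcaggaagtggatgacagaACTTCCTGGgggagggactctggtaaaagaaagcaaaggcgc

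The word starts at position -74 in Slfn1, -55 in Slfn2, -73 in Slfn4 and -42 in Slfn3, counted back from the gene's RefSeq start. For Slfn1 that start lies upstream of the GENCODE start given above, so its position depends on the annotation. Searched on both strands, it occurs in 0.843% of all 32851 promoter windows of the same length. Its extension ACTTCCTGGAGTGAC, shared by Slfn1 and Slfn4, occurs in 2 windows, which are theirs.

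The windows of the long genes Slfn8 and Slfn9 hold no match to that word. Their windows hold the core of the interferon-stimulated response element, GAAA and GAAA spaced by any 2 bases, on the strand opposite to the gene, and the capitals mark it as it reads on the gene's strand.
Slfn8 (chr11:83020811-83020910, minus strand): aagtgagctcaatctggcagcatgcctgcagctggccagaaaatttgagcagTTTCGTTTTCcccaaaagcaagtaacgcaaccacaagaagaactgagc
Slfn9 (chr11:82991831-82991930, minus strand): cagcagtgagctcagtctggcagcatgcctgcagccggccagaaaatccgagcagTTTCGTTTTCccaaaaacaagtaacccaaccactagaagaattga

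This core was found in 3.44% of all windows, and in none of those of Slfn1, Slfn2, Slfn3 and Slfn4. It starts at position -48 in Slfn8 and -45 in Slfn9, whose 250 upstream bases have 79.8% identical aligned columns. The other pairs of members have 40.7% to 49.1%. Counted from another RefSeq start of Slfn8 the same site lies at -136, so its position depends on the start used. The gamma-activated site core TTCNNNGAA, present in 8.30% of windows, was found in none of the members' windows. A match or its absence describes these letters in this window only.

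All 7 Schlafen genes of the table fell with DT-061. Slfn2 was the most abundant and was 3.85-fold lower in group mean FPKM (fragments per kilobase of gene and mapped library depth), and Slfn8 was 3.89-fold lower. Slfn1 was 12.4-fold lower and Slfn4 35.2-fold lower, both with values that overlapped between the groups. Slfn3 and Slfn9 were 2.61-fold and 3.43-fold lower. The median log2 change of the 7 genes was -1.36, against -0.58 over all genes in the table. In these values, and in all that follow, a log2 change is the difference of group means, DT-061 minus vehicle, on the log2(FPKM + 1) scale. That scale understates changes at low values. The SE and adjusted p come from limma fitted to the whole table.

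The recovered depth was 14400000 to 15600000 fragments in the DT-061 libraries and 14100000 to 22200000 in the vehicle libraries. By its deposited name the table holds only genes that the authors found significant in this comparison, so the calls here are not independent evidence. At a limma adjusted p under 0.05, 95.4% of its genes passed in either direction, 65.0% fell and 30.4% rose, and 7 of the 7 members fell while 0 rose. A log2 change under -1 with a call was found in 4 of the 7 members and in 27.3% of the table. The groups were without overlap in 5 of the 7 members and in 78.3% of the genes of the table. Genes both lower with DT-061 and without overlap numbered 641, or 48.2% of all 1329 genes, in a table where 864 genes fell. With 1 library left out, 6 of the 7 members fell in 7 of the 8 cases, and 7 fell without vehicle library 4. The scaling of the libraries mattered. Quantile normalization gives each library the same distribution over the genes of the table. More of these fell than rose, so it takes out part of a shared fall by construction. With quantile normalization, which moved the median change of all genes by 0.63, 2 of the 7 members fell (Slfn1 and Slfn2), and the values of Slfn3, Slfn9 and Slfn10-ps turned to higher.

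**Figure D1:**
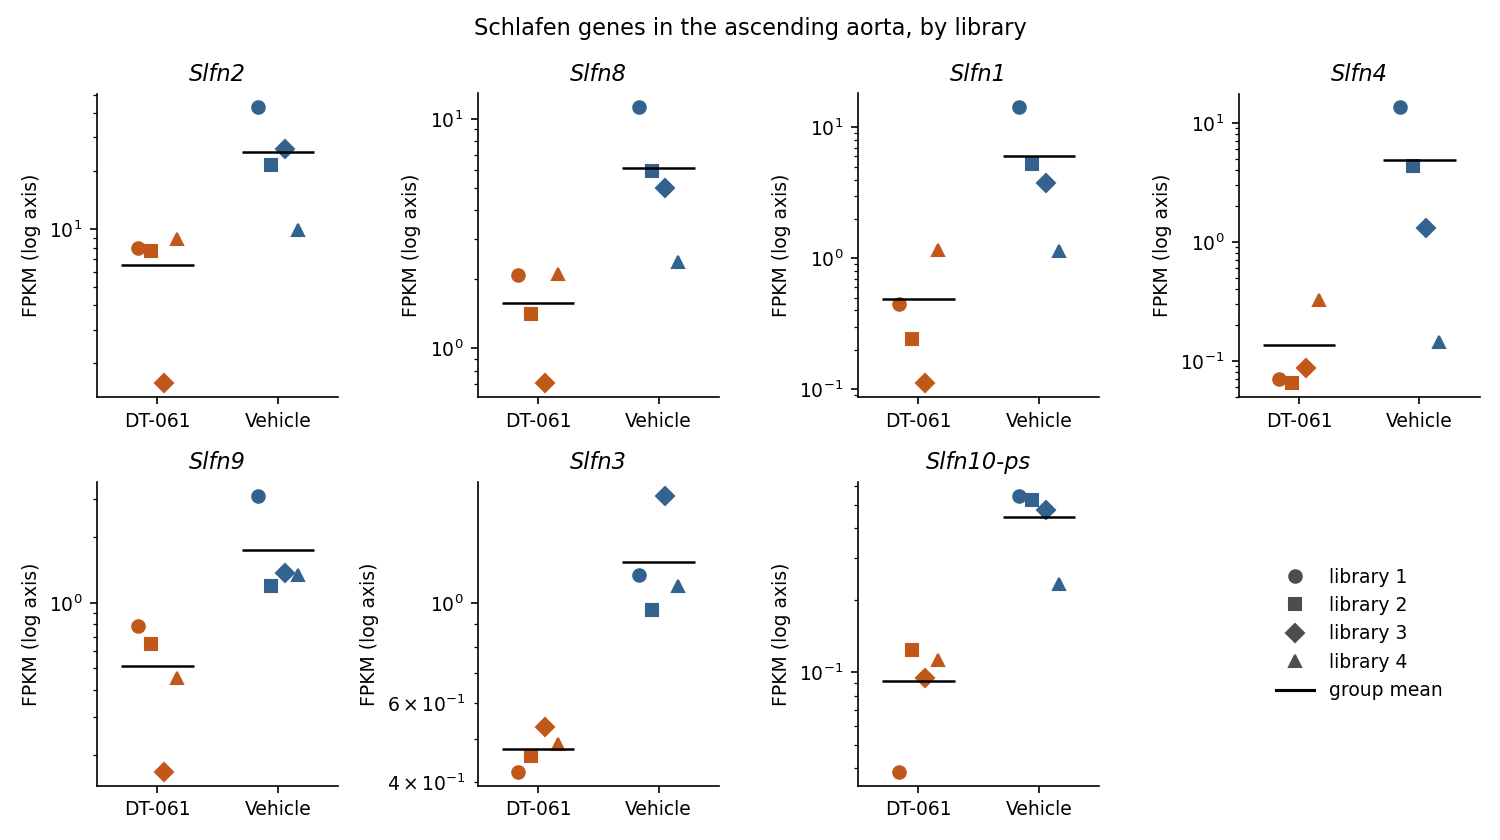
FPKM on a log axis for each Schlafen gene in the 4 DT-061 libraries and the 4 vehicle libraries, with a marker shape per library number and a line at the group mean. The groups overlap in Slfn1 and Slfn4 only, and vehicle library 4 is the lowest vehicle library in Slfn1, Slfn2, Slfn4, Slfn8 and Slfn10-ps.

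The short genes include the most abundant member. Slfn2, which keeps mouse T cells and monocytes quiescent, had 7.99, 7.65, 1.57 and 8.86 FPKM in DT-061 libraries 1 to 4, against 43.0, 21.6, 26.0 and 9.87 FPKM in vehicle libraries 1 to 4. Every DT-061 library was below every vehicle library, but DT-061 library 4 and vehicle library 4 were close. Slfn2 averaged 6.52 ± 3.34 FPKM in DT-061 libraries and 25.1 ± 13.7 FPKM in vehicle libraries (SD, n = 4). The log2 change was -1.80 ± 0.54 (SE, n = 4; limma adjusted p = 0.020).

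Slfn1, which arrests the growth of developing mouse T cells when overexpressed, had 0.448, 0.240, 0.111 and 1.17 FPKM in DT-061 libraries 1 to 4, against 14.3, 5.24, 3.75 and 1.14 in vehicle libraries 1 to 4. DT-061 library 4 was slightly above vehicle library 4, and the other libraries of the groups were separate. The log2 change was -1.95 ± 0.55 (SE, n = 4; limma adjusted p = 0.018). By the recovered depth these values are 12, 7, 3 and 32 fragments with DT-061, against 430, 217, 122 and 30 with vehicle. The 12.4-fold ratio depends on single libraries, at 6.87 without vehicle library 1 and 22.9 without DT-061 library 4. The ratio of Slfn1 to Slfn2 FPKM was 0.0561, 0.0314, 0.0705 and 0.132 in DT-061 libraries 1 to 4, against 0.331, 0.243, 0.144 and 0.115 in vehicle libraries 1 to 4. The ratio in DT-061 library 4 exceeded that in vehicle library 4, and the other 3 DT-061 ratios lay below all vehicle ratios.

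The intermediate genes, close in sequence, differed in their values. Slfn4, a gene of activated macrophages and other myeloid cells in mice, had 0.0703, 0.0646, 0.0869 and 0.326 FPKM in DT-061 libraries 1 to 4, against 13.5, 4.33, 1.31 and 0.143 in vehicle libraries 1 to 4. The vehicle libraries thus spanned a 94.3-fold range, and vehicle library 4 lay among the DT-061 libraries. By the recovered depth these values are 4, 4, 5 and 19 fragments with DT-061, against 865, 381, 91 and 8 with vehicle. The log2 change of -1.74 ± 0.70 (SE, n = 4; limma adjusted p = 0.040) was the least firm of the 7. The call was lost with any library but vehicle library 4 left out, at limma adjusted p of 0.052 to 0.091. Without vehicle library 1 the log2 change was -1.09 and the ratio of group means was 14.1-fold, and without DT-061 library 4 the ratio was 65.2-fold. With the replicate number as a block the call also ended, at a limma adjusted p of 0.058.

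Slfn3, studied mainly in mouse T cells and gut epithelium, had 0.422, 0.458, 0.531 and 0.486 FPKM in DT-061 libraries 1 to 4, against 1.16, 0.967, 1.73 and 1.09 in vehicle libraries 1 to 4. Both groups were tight and did not overlap. Its order of libraries was unlike that of Slfn4, since DT-061 library 3 and vehicle library 3 were the highest of their groups. The spread within the vehicle group was far smaller than that of Slfn4. The log2 change was -0.59 ± 0.13 (SE, n = 4; limma adjusted p = 0.016), but it turned to 0.23 with quantile normalization. When each library was rescaled to the same median it was -0.23, without a call. The ratio of Slfn4 to Slfn3 FPKM was 0.141 to 0.670 in the DT-061 libraries, against 11.7, 4.48, 0.758 and 0.131 in vehicle libraries 1 to 4.

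Among the long genes, Slfn8 had 2.08, 1.42, 0.704 and 2.10 FPKM in DT-061 libraries 1 to 4, against 11.2, 5.92, 4.99 and 2.38 in vehicle libraries 1 to 4. The groups did not overlap, again with vehicle library 4 nearest to the DT-061 libraries. Its log2 change was -1.36 ± 0.39 (SE, n = 4; limma adjusted p = 0.018), and it lost its call with quantile normalization, at -0.55 (limma adjusted p = 0.10).

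Slfn9 had 0.784, 0.650, 0.167 and 0.450 FPKM in DT-061 libraries 1 to 4, against 3.11, 1.19, 1.38 and 1.34 in vehicle libraries 1 to 4. Here vehicle library 1 stood above 3 similar vehicle libraries, and vehicle library 4 was not the lowest. The log2 change was -0.83 ± 0.24 (SE, n = 4; limma adjusted p = 0.019), which became -0.46 without a call under the median rescaling and 0.03 with quantile normalization. The ratio of Slfn8 to Slfn9 was 2.66, 2.19, 4.21 and 4.67 in DT-061 libraries 1 to 4, against 3.62, 4.96, 3.63 and 1.77 in vehicle libraries 1 to 4, so the ratios of the groups overlapped.

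The pseudogene Slfn10-ps was among the least abundant, with 0.0385, 0.124, 0.0951 and 0.113 FPKM in DT-061 libraries 1 to 4, against 0.546, 0.523, 0.474 and 0.235 in vehicle libraries 1 to 4. These are 2, 7, 5 and 6 fragments with DT-061, against 32, 42, 30 and 12 with vehicle. The groups did not overlap, with a log2 change of -0.40 ± 0.09 (SE, n = 4; limma adjusted p = 0.016) that turned to 0.11 with quantile normalization. On the log2(FPKM + 0.1) scale, where low values count more, the change was -1.48.

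Near-identical stretches could let reads count for another gene. Of the windows of 150 bases, the read length, in each member's longest transcript, none in Slfn1, Slfn2, Slfn4 and Slfn8 occurs unchanged in a transcript of another gene. Slfn9 and Slfn10-ps share 87 such windows, which are 1.55% of Slfn9 and 2.51% of Slfn10-ps. Slfn3 shares 43 (1.60%) with the pseudogene Gm11427. The sources used here do not state how reads with several matches were treated, so the values of these 3 genes are uncertain. Windows that match with a few differing bases were not counted. The shares above therefore set no upper limit on reads counted for another similar member, such as between Slfn8 and Slfn9.

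**Figure D2:**
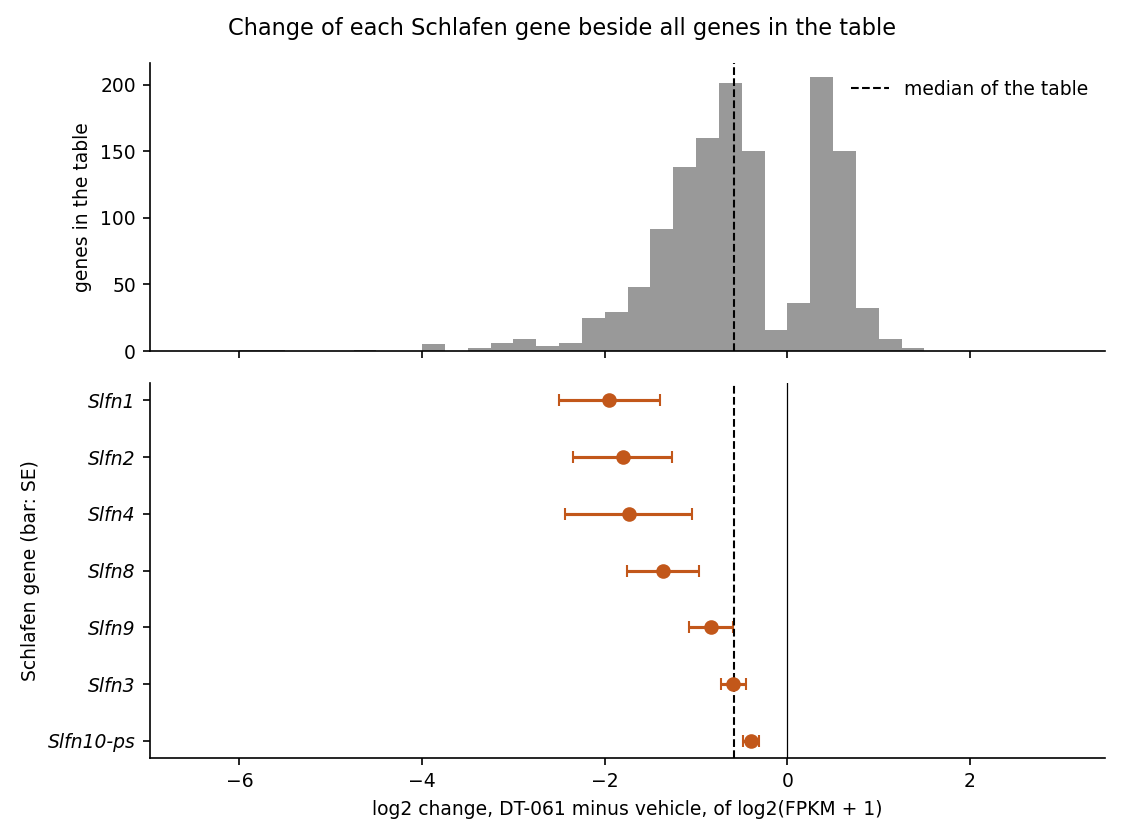
Top, the number of genes of the table per log2 change; bottom, the log2 change of each Schlafen gene with its SE (n = 4 libraries per group), with the table's median of -0.58 as a dashed line. Slfn1, Slfn2, Slfn4 and Slfn8 lie between -1.95 and -1.36, and Slfn9, Slfn3 and Slfn10-ps between -0.83 and -0.40.

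The summed FPKM of the 7 genes was 11.8, 10.6, 3.27 and 13.5 in DT-061 libraries 1 to 4, against 86.8, 39.8, 39.7 and 16.2 in vehicle libraries 1 to 4. Slfn2 gave the largest share in each of the 8 libraries, 48.1% to 72.1% with DT-061 and 49.5% to 65.6% with vehicle. Slfn8 gave 13.4% to 21.5% with DT-061 and 12.6% to 14.9% with vehicle. Slfn1 made up 2.27% to 8.64% of the sum with DT-061, against 7.03% to 16.4% with vehicle. Slfn4 ranged from 0.594% to 2.66% with DT-061, against 0.882% to 15.5% with vehicle. Shares of the same sum move together, so they are given as a description.

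**Figure D3:**
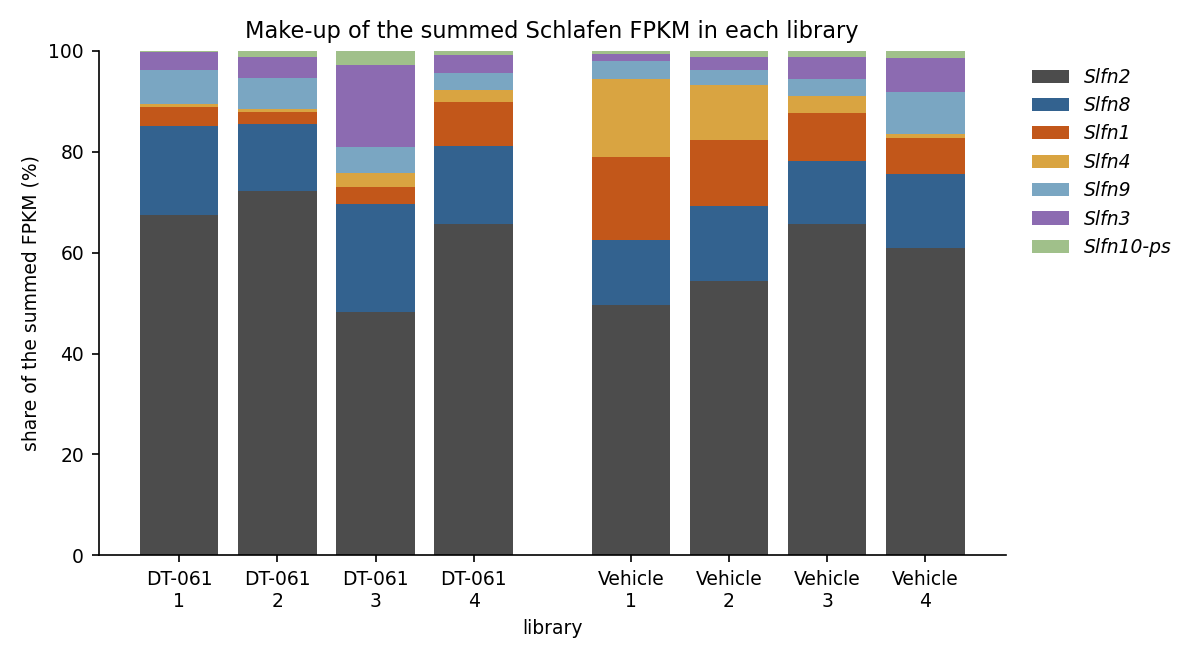
Share of each Schlafen gene in the summed FPKM of the 7 genes, as stacked bars for each DT-061 and vehicle library. Slfn2 is the largest part of each bar, and Slfn1 and Slfn4 together are widest in vehicle libraries 1 and 2.

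Markers of leukocytes moved with the Schlafen genes, and in bulk tissue fewer cells of a type and less RNA per cell cannot be told apart. All 9 pan-leukocyte markers in the table, of 18 listed, fell, with a median log2 change of -1.44, and 3 of the 9 had groups without overlap. The count of 9 dropped to 5 without DT-061 library 3, to 3 without vehicle library 1 or 2 and to 4 without vehicle library 3. It was 2 with the median rescaling and 4 with quantile normalization. Their mean log2(FPKM + 1) was 1.74 to 3.30 in the DT-061 libraries and 3.30 to 5.17 in the vehicle libraries, and no marker was at 0. The actin regulator gene Coro1a fell by 1.80 ± 0.57 on the log2 scale (SE, n = 4; limma adjusted p = 0.022), and the surface antigen gene Cd53 fell by 1.65 ± 0.54 (SE, n = 4; limma adjusted p = 0.023), a call that ended without vehicle library 1 or 2 (0.051 and 0.050). Cd52 fell by 2.02 ± 0.68 (SE, n = 4), with groups that overlapped, and lost its call in 4 of the 8 cases of 1 library left out. Vehicle library 1 was the highest and DT-061 library 3 the lowest in this list, as they were in Slfn1, Slfn2 and Slfn8.

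Markers of single lineages were also lower, in a table where 65.0% of genes fell, and most of these lists had fewer genes in it. All 4 monocyte and macrophage markers in the table, of 22 listed, fell, with list means of 0.77 to 2.15 in DT-061 libraries and 2.21 to 4.75 in vehicle libraries on the log2 scale. Mpeg1, which makes a pore in engulfed microbes, fell by 2.14 ± 0.64 on the log2 scale, and Plac8 fell by 1.96 ± 0.56 (SE, n = 4). Of 17 T and NK cell markers, of 24 listed, 16 fell and 1 did not pass. Their list means were 0.25 to 0.64 with DT-061 and 0.56 to 2.41 with vehicle. The count of 16 was 5 without DT-061 library 1 or 3, 10 without DT-061 library 2 or 4, 7 without vehicle library 3 and 0 with quantile normalization. Cd2, a T cell adhesion gene, fell by 1.65 ± 0.49 (SE, n = 4). The 3 neutrophil and mast cell markers, of 18 listed, and the 3 B and plasma cell markers, of 14 listed, fell as well. The neutrophil and mast cell count of 3 was 0 without DT-061 library 3 and 0 without vehicle library 2. It was 2 without DT-061 library 2, 3 without vehicle library 4, 1 without any other single library, and 0 with quantile normalization. The B and plasma cell count of 3 was 1 with either scaling. The list means of these cells were 0.24 to 0.85 with DT-061 and 0.50 to 3.21 with vehicle for neutrophils and mast cells, and 2.16 to 3.28 with DT-061 and 3.82 to 7.28 with vehicle for B and plasma cells. S100a9 was listed at 0 in DT-061 library 3 and vehicle library 4. The part of these cells in the Schlafen changes was not tested beyond the comparison with the pan-leukocyte markers.

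Smooth muscle markers went the other way, as 8 of 12 were in the table and all 8 rose (median log2 change 0.75), 6 of them with quantile normalization. Of 13 fibroblast markers, 3 were in the table and fell, but with the median rescaling 1 of the 3 fell and Lum turned to higher. None of the 10 endothelial markers was analysed here. Among these contractile genes of the aortic wall, Myl9, a myosin light chain gene, stood at 3336 ± 1057 FPKM in DT-061 libraries and 1651 ± 269 FPKM in vehicle libraries (SD, n = 4).

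Set against the pan-leukocyte markers of the same library, no Schlafen gene differed between the groups at an adjusted p under 0.05. For each gene the mean of the 9 markers was subtracted on the log2(FPKM + 1) scale, and the groups were compared by a two-sided exact permutation test over the 8 libraries, whose smallest possible p is 0.029, adjusted over the 7 genes. For any gene to pass after this adjustment, most of the 7 would have to reach that smallest p. The lack of a call is therefore uninformative, and the differences are given as a description. Slfn2 stood at -0.10 ± 0.23 with DT-061 and 0.26 ± 0.15 in vehicle libraries (SD, n = 4), a difference of -0.36 (exact permutation p = 0.057, adjusted p = 0.30). Slfn1 stood at -2.31 ± 0.58 with DT-061 and -1.80 ± 0.42 with vehicle, a difference of -0.51 (adjusted p = 0.32, exact permutation test, n = 4). Slfn8 stood at -1.51 ± 0.44 with DT-061 and -1.59 ± 0.08 with vehicle, a difference of 0.08 (adjusted p = 0.69, exact permutation test, n = 4). The remaining differences were -0.30 for Slfn4, 0.61 for Slfn9, 0.85 for Slfn3 and 1.04 for Slfn10-ps. The unadjusted exact permutation p was under 0.05 for 0 of the 7 genes. With a pseudocount of 0.1 the differences were -1.57 for Slfn1, -1.65 for Slfn4, -0.36 for Slfn2 and -0.16 for Slfn8, and 0.02 for Slfn9, 0.45 for Slfn3 and 0.17 for Slfn10-ps, again without a call. The difference thus depends on the scale for the genes with low values, and a p over the threshold does not show that a gene moved as the markers did.

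**Figure D4:**
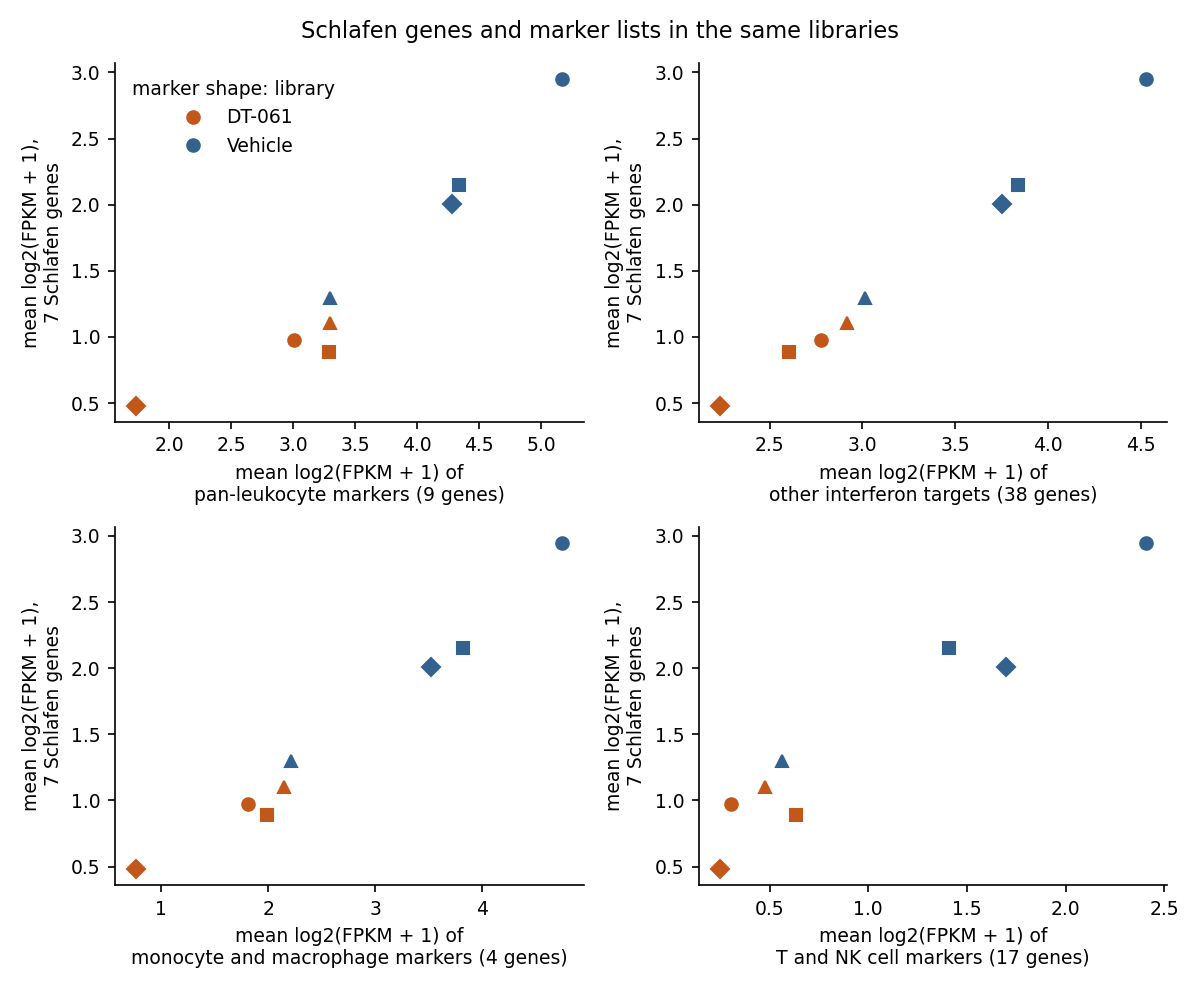
Mean log2(FPKM + 1) of the 7 Schlafen genes (vertical axis) against the mean of each of 4 marker lists (horizontal axes) in the 4 DT-061 and 4 vehicle libraries. Vehicle library 1 is highest and DT-061 library 3 lowest in each panel, and vehicle library 4 is the vehicle library nearest to DT-061.

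Genes of the interferon pathway in the table were lower with DT-061, in a table where 65.0% of genes fell. Of the ligands and receptors, 1 of 13 listed was in the table, the receptor gene Ifnar1, which fell by 0.42 on the log2 scale and turned to 0.38 with the median rescaling. All 7 signalling genes and transcription factors in the table, of 16 listed, fell, with a median log2 change of -1.24, and 3 and 4 of them fell with the median rescaling and quantile normalization. Irf8, a transcription factor of myeloid cells, averaged 3.03 ± 1.35 FPKM in DT-061 libraries and 14.1 ± 7.23 FPKM in vehicle libraries (SD, n = 4). Its log2 change was -1.84 ± 0.43 (SE, n = 4; limma adjusted p = 0.016). Socs3, a feedback inhibitor of cytokine signalling, fell by 1.78 ± 0.36 and Irf7, a driver of type I interferon genes, by 1.77 ± 0.50 on the log2 scale (SE, n = 4; limma adjusted p = 0.015 and 0.018).

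Antiviral effectors that act on RNA or translation, as some Schlafen proteins do, had the same direction. All 11 in the table, of 26 listed, fell (median log2 change -1.15), and 4 of the 11 had groups without overlap. The count of 11 was 5 without DT-061 library 3 or vehicle library 2, 6 without DT-061 library 2 and 7 without vehicle library 1 or 3. It was 2 with the median rescaling and 3 with quantile normalization. Ifit1, which binds foreign RNA caps, fell by 1.497 ± 0.47 on the log2 scale (SE, n = 4). The oligoadenylate synthetase family genes Oasl1 and Oas1a fell by 1.49 ± 0.52 and 1.35 ± 0.49, and lost their calls in 3 and 5 of the 8 cases of 1 library left out, at limma adjusted p of 0.059 to 0.064 and 0.054 to 0.073. All 38 other interferon targets in the table, of 51 listed, fell (median log2 change -1.11), and 25 of the 38 had groups without overlap. The count of 38 was 27 to 38 with 1 library left out, 10 with the median rescaling and 17 with quantile normalization. Ifi211, Ifi205 and Ifi204, which belong to a family of DNA-sensing proteins, had log2 changes of -1.90, -1.83 and -1.70 and fell. The mean log2(FPKM + 1) of these 38 was 2.23 to 2.92 with DT-061 and 3.01 to 4.53 with vehicle, and DT-061 library 3 was the lowest and vehicle library 1 the highest, as in the leukocyte markers. Of 14 genes of lymphocyte quiescence, 2 were in the table, the cytokine receptor gene Il7r and the transcription factor gene Runx1, and both fell. The count of 2 was 1 without DT-061 library 1, DT-061 library 3, vehicle library 1 or vehicle library 3, 1 with the replicate block and 0 with quantile normalization. All 11 cell division genes in the table, of 20 listed, fell (median log2 change -0.92), with list means of 0.94 to 1.503 with DT-061 and 1.48 to 2.58 with vehicle. The count of 11 was 4 without DT-061 library 3, 6 without DT-061 library 1 or 4, 7 without vehicle library 1 and 0 with both scalings. Vehicle library 4 had the highest of these means, unlike in the Schlafen genes. Cenpa, a centromeric histone gene, fell by 0.97 ± 0.24 and the mitotic regulator gene Cdc20 by 0.98 ± 0.28 on the log2 scale (SE, n = 4), and both lost their calls with both scalings. Top2a fell by 1.05 ± 0.37 (SE, n = 4), with groups that overlapped. Its call ended with both scalings and in 4 of the 8 cases of 1 library left out.

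Likeness to the Schlafen genes was measured as the mean absolute difference between centred log2(FPKM + 1) profiles over the 8 libraries. The candidates were 1096 genes other than the members that averaged 1 FPKM or more. Group differences enter this measure, and it is given as a description. The 5 genes nearest to the members' mean profile were the pseudogene Hmgb1-ps8 (0.079), Nlrc5 (0.081), an activator of class I antigen presentation genes, Rinl (0.089), Gimap8 (0.093), a GTPase gene of lymphocytes, and Apobec3 (0.097), an antiviral deaminase. Single members had different nearest genes. For these the other members were candidates too, at any mean FPKM, but no member was nearest to another. The nearest to Slfn1 was Irf7 (0.17), to Slfn2 Ifi204 (0.094) and to Slfn8 Rtp4 (0.076), all interferon targets. The nearest to Slfn4 was Ly6c2 (0.20), a marker of inflammatory monocytes. Ly6c2 had 0.0779, 0.0239, 0.0514 and 0.304 FPKM in DT-061 libraries 1 to 4, against 15.8, 2.72, 2.26 and 0.291 in vehicle libraries 1 to 4. Like Slfn4 it was highest in vehicle library 1 and overlapped between the groups in library 4. Its log2 change of -1.86 was -1.17 without vehicle library 1, and its call ended in 6 of 8 cases of 1 library left out (limma adjusted p 0.052 to 0.063). The nearest to Slfn3 was Apaf1 (0.086), which forms the apoptosome, to Slfn9 the cytokine receptor gene Il17ra (0.096) and to Slfn10-ps Mia2 (0.045).

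Within 1 Mb of the Schlafen span, the table held 12 further genes, of which 11 fell and 1, Rasl10b, rose, in a table where 65.0% of genes fell. Genes of this window outside the table were not counted, so these calls do not describe the whole region. The count of 11 was 8 with the median rescaling and 5 with quantile normalization, where Ccl11 and Gm11427 turned to higher. Directly beside Slfn3 lie AI662270 (83223576 to 83226604), a processed transcript, and the pseudogene Gm11427 (83224454 to 83260960). AI662270 had 3.12, 3.23, 0.772 and 3.24 FPKM in DT-061 libraries 1 to 4, against 18.3, 8.83, 6.73 and 4.31 in vehicle libraries 1 to 4, and fell by 1.47 ± 0.44 on the log2 scale (SE, n = 4; limma adjusted p = 0.020). As in Slfn8, DT-061 library 3 was the lowest and vehicle library 1 the highest. Gm11427 fell by 0.77 ± 0.24 and turned to 0.01 with quantile normalization. Both overlap in position, so their reads cannot be told apart without strand and counting rules.

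Chemokine genes made up 7 of the 12, with Ccl2, Ccl7, Ccl11 and Ccl8 on the Slfn9 side and Ccl5, Ccl3 and Ccl4 on the Slfn3 side. All 7 fell, against 5 with the median rescaling and 4 with quantile normalization, and Ccl4 lost its call in 4 of the 8 cases of 1 library left out (limma adjusted p 0.050 to 0.057). Ccl8, a monocyte attractant, fell by 3.18 ± 0.69 and Ccl5, a T cell attractant, fell by 2.62 ± 0.47 on the log2 scale (SE, n = 4; limma adjusted p = 0.016 and 0.013). Rasl10b, a small GTPase gene, averaged 7.57 ± 0.87 FPKM in DT-061 libraries and 4.50 ± 1.74 FPKM in vehicle libraries (SD, n = 4) and rose by 0.69 ± 0.22 on the log2 scale (SE; limma adjusted p = 0.022). Its groups overlapped, and its call ended without DT-061 library 4 or vehicle library 2, at limma adjusted p of 0.051 in both.

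**Figure D5:**
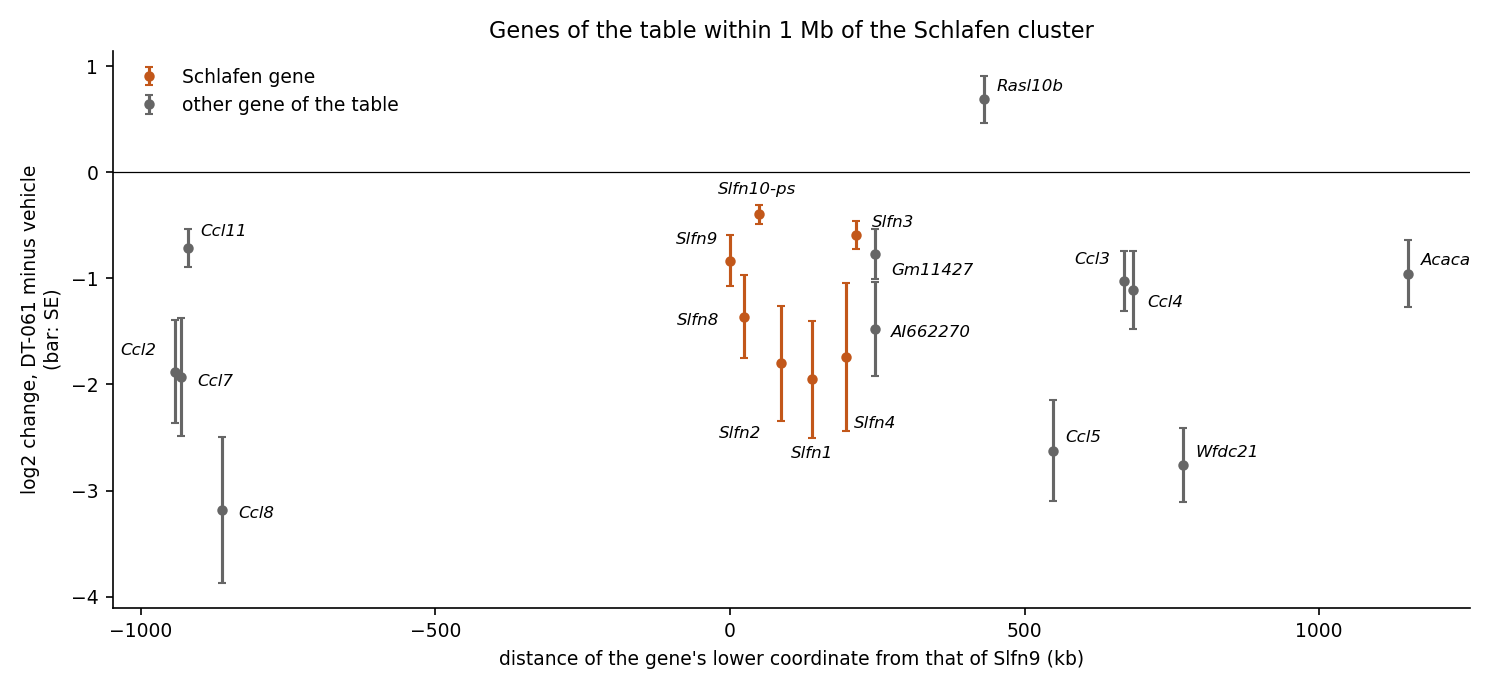
Log2 change with SE (n = 4 libraries per group) of each gene of the table within 1 Mb of the Schlafen cluster, by the distance of its lower coordinate from that of Slfn9 in kb. The 7 Schlafen genes lie below 0, and Rasl10b alone lies above it, at 0.69.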

How the data were processed

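The authors deposited FPKM values, made from 150 bp paired-end poly-A reads with featureCounts 1.5.0-p3, HISAT2 2.0.5 and StringTie 1.3.3b on mm10, per the submitters' processing notes. The sources used here give neither a strand setting nor the selection threshold. Each of the 8 columns was matched to its library by title, and 0 were left unused.

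From these values, limma 3.58.1 (trend and robust, R 4.3.3) was fitted to log2(FPKM + 1) of all 1329 genes with treatment as the only term, adjusted by Benjamini-Hochberg with a threshold of 0.05. It was tested on simulated data. Rose and fell are used of calls past it. Exact permutation tests used scipy 1.17.1. Symbols (1328 genes) and coordinates came from GENCODE M21, and promoters from RefSeq GRCm38.p6. Library depth was recovered from steps of low FPKM values, taking multiples up to 60 within 0.03 of a whole number. At the step chosen, 20.3% to 35.0% of values were whole, against 5.71% to 5.93% at the median step, so no count test was run. Fragments are given for Slfn1, Slfn4 and Slfn10-ps. Their values under 200 fragments lay within 0.044, 0.056 and 0.013 of a whole number with the GENCODE length. Larger values were rounded.

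Members and lists were chosen with earlier results of these data known. Named genes were the members, up to 3 genes with the greatest change from each list that had 3 or more in the table (mean FPKM 1 or more), genes within 1 Mb, and the nearest profiles. Not all of them are described. Ifnar1, Il7r and Runx1 were named as the only list genes in the table. Alternatives were a pseudocount of 0.1, a mean FPKM of at least 1, limma without trend and robust, rescaling each library to the same median, quantile normalization, leaving out libraries, and the replicate block.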

Additional observations from a re-analysis of the deposited data

Results flagged for a closer look

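Among 14 groups of 4 libraries, 3 held a library far from the others of its group. The cut-off used gives about 1 in 20 such groups when values are normal and groups independent. Here it was applied to untransformed FPKM, and the groups share the same 8 libraries, so the count of 3 is a description only. Slfn2 had 1.57 FPKM in DT-061 library 3, far below the other DT-061 libraries at 7.65 to 8.86. Slfn4 had 0.326 FPKM in DT-061 library 4, far above the other DT-061 libraries at 0.0646 to 0.0869. Slfn9 had 3.11 FPKM in vehicle library 1, far above the other vehicle libraries at 1.19 to 1.38.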

How the results depend on the processing

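Of the 7 Schlafen genes, 5 fell with the median rescaling and 2 with quantile normalization, 7 with a pseudocount of 0.1 and 5 of 5 tested at a mean FPKM of at least 1, and 6 to 7 with 1 library left out. Over all genes, 1268 passed, against 733 with the median rescaling (59.2% of them higher, against 31.9%), 603 with quantile normalization (65.3% higher) and 942 to 1230 with 1 library left out. Of 117 genes of the other lists 116 passed, against 48, 41 and 70 to 115, with the lowest count without DT-061 library 3. The rescaling moved the median change of all genes by 0.45 and quantile normalization by 0.63. With the rescaling, the log2 changes of Sdc1 (0.34), Lum (0.051), Apaf1 (0.20), Mia2 (0.40) and Ifnar1 (0.38) turned to higher. With quantile normalization, Slfn3 (0.23), Slfn9 (0.027), Slfn10-ps (0.11), Ccl11 (0.042), Gm11427 (0.014) and Apaf1 (0.40) did. Both scalings used only the genes of the table, more of which fell than rose, so an upward shift of the median change is built into them. Which scale is closer to the tissue was not tested. Relative to the pan-leukocyte markers, 0 of 7 genes passed in each alternative run. The adjusted p could hardly reach the threshold in the main run or with 1 library left out, and could not with a block. The lack of calls in these runs therefore says nothing about stability. Ptprc alone was not run, as it was not analysed here.

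No label states whether the replicate numbers pair the samples. Deviations of same-numbered libraries correlated at 0.18, -0.11, -0.05 and -0.47, and not every library correlated best with its own number. With 4 libraries per group these correlations cannot exclude a pairing. With the replicate block, 834 genes passed in the table, 79 of the other lists and 6 Schlafen genes. The depth limits Slfn10-ps, Slfn4 and Slfn1, with 2 to 7, 4 to 19 and 3 to 32 fragments in the DT-061 libraries.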
